A study of Mus musculus with 8 samples.

Results

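The dorsal (upper) surface of the mouse tongue was followed from its first to its last section in a tomo-seq profile, a method that cuts a frozen block into a series of thin slices and barcodes the RNA of every slice separately. The profile consisted of 2 of the 8 samples of the series, both labelled dorsal tongue (replicates 1 and 2), and of 40 of its 160 sections. All samples came from wild-type C57BL/6J mice with no treatment named, the other sites being buccal mucosa, hard palate and ventral tongue with 2 samples each. Every sample held 20 sections of 14 µm, or 280 µm of tissue. Sections of at least 10000 counted molecules (unique molecular identifiers, UMIs) were kept, which left 39 of the 40. The sections taken to hold the surface (1 to 5) were compared with the deepest ones (16 to 20), and each gene's level in CPM (its UMIs scaled to 1000000 per section) was followed across section numbers. The labels give neither the age of the animals nor the orientation of the block nor whether the replicates came from separate mice. P-values therefore cover only how far these 2 samples differ. That spread may be partly technical, and sex-linked transcripts, given below, also differed between the 2 samples.

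The upper face of the tongue is covered by a stratified squamous epithelium whose keratinocytes divide in the basal layer, stop dividing as they move up and end as flat cornified cells. In mice most of this surface is covered by filiform papillae, small backward-pointing spines whose cells make hard keratins and keratin-associated proteins otherwise known from hair and nail, while the epithelium between the papillae makes Krt4 and Krt13. Below it lie a connective tissue with vessels and nerves and the striated muscle that moves the tongue. In a section that mixes these tissues, fewer cells of a type and less RNA per cell cannot be told apart.

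The 2 samples held 21230278 and 20325813 UMIs. Section 5 of replicate 1 had 2523 UMIs and was dropped. Section 11 of replicate 2 passed with 14671 UMIs, but its mean Spearman correlation with the other sections of that sample was 0.537 across genes against a median of 0.909 over sections, and 14.1% of its UMIs were mitochondrial. It lies outside both end zones, and it was left out of middle-zone values where stated. The remaining sections of replicate 1 held at least 834905 UMIs. Expression changed gradually, with a mean Spearman correlation across genes of 0.955 and 0.910 between neighbouring sections in replicates 1 and 2, and of 0.834 and 0.862 between the first and the last section. The replicates differed in sex-linked transcripts. Xist, made from the inactive X chromosome, was at 197 CPM in replicate 1 and 1.78 in replicate 2, and Ddx3y of the Y chromosome at 1.80 and 75.9. No sex is given in the labels, and any difference between the replicates cannot be told apart from one that goes with these transcripts.

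The marker lists placed the epithelial surface at the low section numbers and muscle at the high ones. Counts were summed over 4 zones of 5 section numbers in each sample and sections 1-5 were set against 16-20 with the sample as a block (edgeR quasi-likelihood test, Benjamini-Hochberg adjusted p under 0.05 over all genes tested). Of 14358 entries, 2155 (15%) were higher in sections 1-5 and 2379 (16.6%) in sections 16-20, together 31.6%. Single genes made up 14289 of these entries, with 2145 higher and 2369 lower toward the surface and a median log2 fold change (sections 1-5 over 16-20) of 0.02. The changes were larger at depth: 435 genes were at least 2-fold higher in sections 1-5 and 1226 in sections 16-20. The balance of the counts depended on scaling, since 47.5% of the called genes were higher at the surface after TMM scaling and 27.1% with plain CPM, which moved the median of all genes by -0.16 on the log2 scale. With replicate 1 left out and the spread taken from the other sites, 285 genes were higher near the surface and 562 at depth, and with replicate 2 left out 173 and 113.

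A stricter description asked, with no test, for a log2 ratio of at least 1 and a Spearman correlation with section number of at least 0.5 in size, both with the matching sign in both replicates. Over 11307 genes of at least 5 CPM it was met by 115 toward the surface (1.02%) and 813 toward the depth (7.19%). All of these also passed the test. Krt80 (log2 ratios 1.49 and 1.00) lay just inside the limit at the surface, and Csdc2 (1.36 and 0.999) and the hard keratin Krt36 (0.999 and 1.01) just outside it. At depth Coq5 (-1.352 and -1.002) and Mus81 (-1.003 and -1.122) were just inside, Steap4 (-0.996 and -1.20) and Flvcr1 (-0.999 and -1.87) just outside. Across genes the log2 ratios of the replicates had a Spearman correlation of 0.742, and 52 called genes had ratios of opposite sign in the samples. Genes are not independent replicates, so this value is a description.

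**Figure D1:**
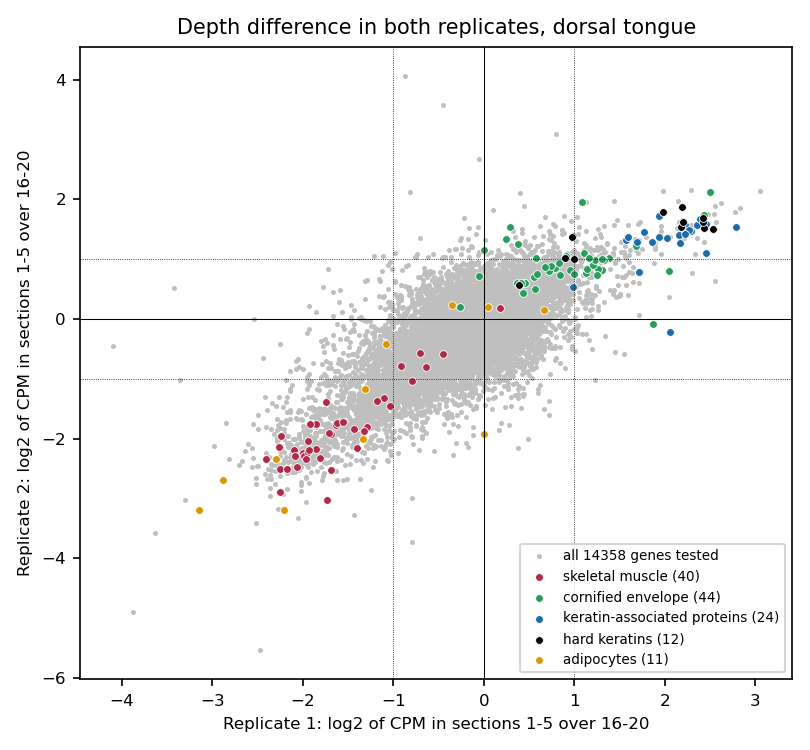
Log2 ratio of CPM in sections 1-5 over 16-20 for 14358 genes, replicate 1 on the x axis and replicate 2 on the y axis; points of 5 gene lists are coloured and dotted lines stand at a ratio of 1 and -1. Hard keratins and keratin-associated proteins lie to the upper right and skeletal muscle genes to the lower left.

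Hard keratins, which form the stiff filaments of hair, nail and filiform papillae, were higher in sections 1-5 in all 12 genes tested of the 14 listed. Their median log2 fold change was 2.07, against 0.02 over all genes. Krt31, a type I hair keratin, was at 653 and 440 CPM in sections 1-5 of replicates 1 and 2 and at 143 and 151 CPM in sections 16-20. Its zones did not overlap in either sample, and its log2 fold change was 2.03 ± 0.14 (SE; adjusted p = 1.29e-09). Krt86, a type II partner, went from 852 and 466 CPM to 158 and 145 CPM (2.23 ± 0.16, adjusted p = 1.42e-09). Krt81 went from 1126 and 893 CPM to 244 and 289 CPM (2.09 ± 0.14).

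The family divided by the size of its gradient. Krt31, Krt33a, Krt33b, Krt34, Krt81, Krt83, Krt86 and Krt87 had log2 fold changes between 2.03 and 2.23. Krt35 was at 1.35, Krt36 at 1.18 and Krt84 at 1.13. Krt84 was at 2723 and 3684 CPM near the surface and still at 1458 and 1821 CPM in sections 16-20. Krt36 followed the same course, from 3057 and 3604 CPM to 1529 and 1792 CPM. These folds are compressed by the assay, since the 6-base UMIs allow at most 4096 different molecules of a gene in a section. In read counts, which have no such limit, the log2 fold changes of Krt36 and Krt84 were 1.63 and 1.502. Krt32 stood apart, with 294 and 33.0 CPM in sections 1-5 and 225 and 21.8 CPM in sections 16-20 (0.61 ± 0.12, adjusted p = 0.000534). Its level thus differed more between the replicates than between the zones.

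Keratin-associated proteins, which crosslink hard keratin filaments, were higher in sections 1-5 in all 24 Krtap genes tested, with a median log2 fold change of 2.06. Their summed level was 30778 and 18066 CPM in sections 1-5 of replicates 1 and 2 and 7891 and 6702 CPM in sections 16-20. The replicates thus differed most near the surface. Krtap13-1 was at 2158 and 1241 CPM near the surface and at 564 and 375 CPM at depth (2.00 ± 0.13, adjusted p = 6.83e-10). Krtap26-1 was at 907 and 291 CPM against 130 and 98.9 CPM (2.38 ± 0.20). Krtap3-3, the member closest to the UMI limit of those named, was at 2639 and 2806 CPM against 872 and 1082 CPM (1.65 ± 0.12, and 2.11 in read counts). Genes of this family are near-identical to each other, and single members are uncertain because the sources used here do not give how shared reads were treated.

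The hard keratin and Krtap genes lie in clusters, and the clusters changed together. On chromosome 11 between 99315516 and 100269871 (GRCm38), which holds the type I keratins with a Krtap cluster inside, 47 of 49 genes tested were higher in sections 1-5. All 33 genes of the Krtap cluster itself (99550130 to 99993994) were among them. The type II keratins on chromosome 15 (101347444 to 102032027) had 16 of 20 higher, and the Krtap genes on chromosome 16 (88646824 to 89047883) 8 of 8. Genes there without a family symbol followed the same course: Gm11555 was at 176 and 39.2 CPM near the surface against 23.9 and 10.1 CPM at depth, and Gm11937 at 178 and 31.5 CPM against 28.0 and 7.44 CPM. None of the genes tested in these clusters was higher in sections 16-20.

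Promoter sequences are shown here because these neighbouring genes moved together. The 150 bases before the start site, from RefSeq (GRCm38.p6), are given 5′ to 3′ on the gene's strand, for Krt31 (chr11:100050552-100050701, minus), Krtap13-1 (chr16:88728712-88728861, plus), Sprr2b (chr3:92316555-92316704, plus) and Lor (chr3:92083143-92083292, minus). Capitals mark the TATA box letters TATAAA and, in Lor, the AP-1 letters TGANTCA.
Krt31: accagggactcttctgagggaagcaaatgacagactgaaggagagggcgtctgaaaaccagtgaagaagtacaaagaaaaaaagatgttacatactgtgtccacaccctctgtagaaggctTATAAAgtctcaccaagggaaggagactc
Krtap13-1: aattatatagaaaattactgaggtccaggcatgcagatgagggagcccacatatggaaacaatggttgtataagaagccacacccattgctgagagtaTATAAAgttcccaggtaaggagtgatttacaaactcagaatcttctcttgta
Sprr2b: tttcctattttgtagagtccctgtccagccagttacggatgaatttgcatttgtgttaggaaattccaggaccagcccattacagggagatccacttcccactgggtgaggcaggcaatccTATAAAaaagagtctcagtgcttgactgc
Lor: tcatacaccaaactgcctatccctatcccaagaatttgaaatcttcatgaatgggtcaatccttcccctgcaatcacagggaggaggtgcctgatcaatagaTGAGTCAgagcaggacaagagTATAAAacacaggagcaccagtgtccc
The TATAAA run began 29 bases before the start in Krt31, 52 in Krtap13-1, 29 in Sprr2b and 27 in Lor. Within 250 bases upstream, on either strand, it was found in 13% of 27025 promoters in the table. It was found in 5 of the 6 hard keratins with a promoter there (83.3%), in 20 of 22 Krtap genes (90.9%) and in 19 of 40 cornified envelope genes (47.5%). TGANTCA was in 6.87% of all promoters, in none of the 6 hard keratins, in 27.3% of the Krtap genes and in 35% of the cornified envelope genes. The 2 motifs share no overlapping letters in Lor. A match is a run of letters and no evidence of binding, and neighbouring copies of a family share sequence, so their promoters are not independent.

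Regulators known from the hair follicle had smaller surface differences, with 7 of 11 higher in sections 1-5, 1 higher in sections 16-20 and a median of 0.61. Hoxc13, a homeobox factor that drives hair keratin genes in the follicle, was at 54.6 and 99.4 CPM near the surface and 34.8 and 51.9 CPM at depth (0.99 ± 0.14, adjusted p = 1.42e-05). Foxn1, the factor altered in nude mice, was at 25.1 and 22.8 CPM against 12.98 and 15.37 CPM (0.92 ± 0.17, adjusted p = 0.000257). The homeobox genes Dlx3 and Msx2 rose toward the surface by 0.91 and 0.81 and Cux1 by 0.61. Lef1, a transcription factor of the Wnt pathway, did not pass, at 19.5 and 41.0 CPM in sections 1-5 and 19.5 and 46.2 CPM in sections 16-20 (0.03, adjusted p = 0.924). Tbx3, a T-box factor, was at 107 and 90.2 CPM against 94.7 and 94.3 CPM (0.21, adjusted p = 0.185).

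Genes of the cornified envelope, the protein shell of the dead surface cells, were higher in sections 1-5 in 42 of 44 tested, with a median of 1.14. Without replicate 1 or 2 the calls numbered 16 and 14. In the epidermal differentiation complex on chromosome 3 (90511034 to 93526287), where most of them lie, 54 of 63 genes were higher in sections 1-5 and 2 in sections 16-20. Sprr2b, a small proline-rich protein, was at 148 and 108 CPM near the surface and at 25.4 and 24.1 CPM at depth (2.52 ± 0.13, adjusted p = 7.47e-11). Lce1l, of the late cornified envelope family, was at 1375 and 1093 CPM against 430 and 468 CPM (1.63 ± 0.13). Flg, which gives rise to filaggrin, was at 713 and 759 CPM against 358 and 449 CPM (1.02 ± 0.15). Lor (loricrin) reached the UMI limit, with 4286 and 4691 CPM near the surface and 3127 and 3089 CPM at depth, and its log2 fold change was 0.70 in UMIs and 1.04 in reads. Sprr1a was among the members that did not pass, at 312 and 444 CPM against 376.6 and 384.3 CPM (0.13, adjusted p = 0.464), and the other was Tchhl1 (0.67, adjusted p = 0.079). Sprr3 passed in UMIs at 0.52 and missed in reads (0.48, adjusted p = 0.0914). Sprr2 and Lce members are near-identical, with the same limit as for Krtap genes.

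The serine protease inhibitor Spink6 had the largest rise of any gene that the naming rule covered. It was at 70.6 and 36.5 CPM in sections 1-5 and at 7.66 and 7.47 CPM in sections 16-20 (2.98 ± 0.19, adjusted p = 8.32e-10). Proteases and inhibitors of cornified cell shedding counted 16 higher and 1 lower of 19, with a median of 0.88. Among them were the kallikreins Klk14, at 1023 and 1217 CPM against 582 and 525 CPM, and Klk5, at 127 and 134 CPM against 64.1 and 69.0 CPM. Ctsc, a lysosomal protease, was the one higher at depth, by 0.63. Genes of barrier lipid metabolism counted 19 higher and 1 lower of 24 (median 0.64), including the lipoxygenase gene Aloxe3 at 545 and 583 CPM against 290 and 334 CPM. Desmosome genes, which hold keratinocytes together, counted 9 of 13 (median 0.60) and tight and gap junction genes 14 of 19 (median 0.67). Without replicate 1 or 2 the calls higher near the surface numbered 8 and 3 for proteases, 3 and 0 for barrier lipids, 1 and 0 for desmosomes and 0 and 0 for junctions.

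Defence proteins were higher in sections 1-5 in 21 of 28 tested, with none higher at depth and a median of 0.88. Without replicate 1 or 2 the calls numbered 9 and 5. Slurp1, a secreted protein that acts on nicotinic receptors of keratinocytes, was at 746 and 748 CPM near the surface and 303 and 356 CPM at depth (1.35 ± 0.11, adjusted p = 1.16e-08). The beta-defensin Defb14 was at 59.5 and 63.2 CPM against 24.8 and 24.1 CPM (1.49 ± 0.16), and Defb3 at 172 and 169 CPM against 58.6 and 90.8 CPM (1.40). S100a7a, a calcium-binding antimicrobial protein, went from 323 and 413 CPM to 172 and 194 CPM (1.17).

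**Figure D2:**
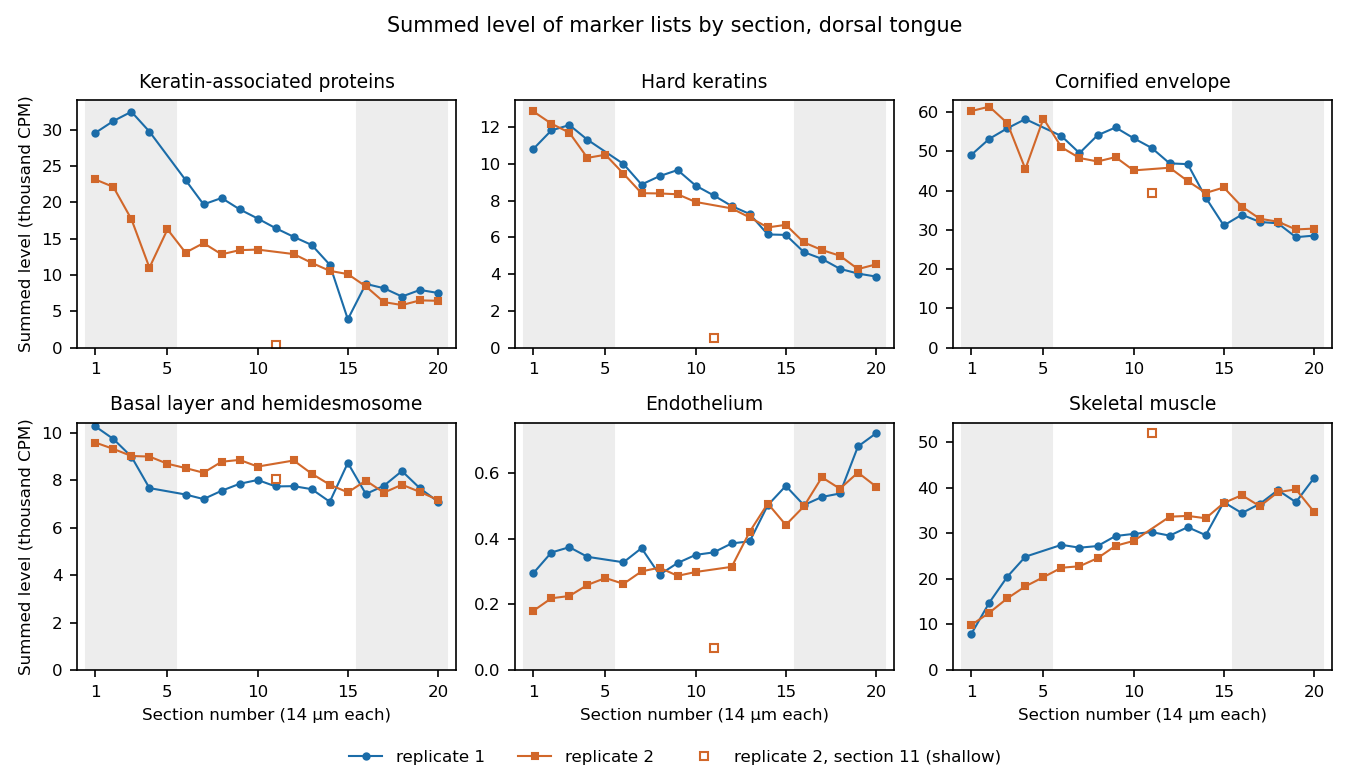
Summed level of 6 gene lists by section number, in units of 1000 CPM, for both replicates; grey bands mark sections 1-5 and 16-20, and the open square is the shallow section 11 of replicate 2. The summed Krtap level falls from 30778 and 18066 CPM in sections 1-5 to 7891 and 6702 CPM in sections 16-20, while the skeletal muscle sum rises.

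Keratins of the living suprabasal layers were higher in sections 1-5 in 11 of 15 genes, with a median of 0.69. Without replicate 1 or 2 the call count was 1 in each case. Krt4 and Krt13, the pair of the interpapillary epithelium, were at 4433 and 4878 CPM and 4443 and 4890 CPM near the surface and at 3281 and 3198 CPM and 3284 and 3201 CPM at depth. Both reached at least 3900 UMIs in 38 of 39 sections, so these values give the UMI limit rather than their levels. In reads Krt4 was at 53530 and 50710 read CPM in sections 1-5 and 39190 and 26830 read CPM in sections 16-20 (0.72, adjusted p = 0.00318). In the authors' estimated transcripts the call held for Krt4 (0.62) and was lost for Krt13 (0.42, adjusted p = 0.059). Those estimates were made from UMIs that were at their limit, so neither outcome shows a gradient or its absence. Krt10 was at 985 and 812 CPM against 364 and 582 CPM (1.13 ± 0.16). Krt1, its usual partner in skin, was near the detection limit at 5.43 and 12.3 CPM against 1.97 and 10.7 CPM (0.70, adjusted p = 0.0853).

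Basal layer genes were split between the ends, and their transcripts remained abundant in sections 16-20. Of 25 basal layer genes 11 were higher in sections 1-5 and 6 in sections 16-20, with a median of 0.13. Krt14 was at 2260 and 2954 CPM near the surface and 1557 and 1858 CPM at depth (0.77 ± 0.11) and Krt5 at 2487 and 2109 CPM against 1884 and 1612 CPM (0.57 ± 0.11). Trp63, the factor that specifies stratified epithelium, was at 81.5 and 91.0 CPM against 92.1 and 87.4 CPM (0.08, adjusted p = 0.656). Itga6, the hemidesmosome integrin, was at 103 and 102 CPM against 110.4 and 99.04 CPM (0.13, adjusted p = 0.437). Lrig1, an EGF receptor antagonist, and Bmi1 were in the part of the list higher at depth, by 1.21 and 0.94, with Lrig1 at 6.011 and 7.997 CPM near the surface and 19.9 and 16.3 CPM in sections 16-20. With plain CPM scaling the basal list was split 8 to 7.

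Of 30 cell cycle genes 6 were higher in sections 1-5, a share near the 15% of all genes, and none in sections 16-20, with a median of 0.26. The proliferation gene Mki67 was at 64.6 and 64.3 CPM near the surface and 52.3 and 58.5 CPM at depth (0.35 ± 0.13, adjusted p = 0.0405). That call was lost with plain CPM scaling (adjusted p = 0.295), where 1 gene of the list passed. Keratinocyte transcription factors had 14 of 25 higher near the surface (median 0.40), and 7 of 25 with plain CPM scaling (median 0.24). Among the 14 was Prdm1, a transcriptional repressor, at 67.5 and 68.1 CPM against 37.6 and 41.2 CPM.

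A test for genes that peaked between the end zones (sections 6-15 above both) called 0 of 14358 genes (0%) by edgeR. Of these genes 971 were positive at an unadjusted p under 0.05, and 30 were positive at an adjusted p under 0.05 by DESeq2, of which 2 also lay above both end zones. The section-weighted centres of the lists give their order along the block. The median centre of Krtap genes was section 7.51 and 8.36 in replicates 1 and 2, of hard keratins 7.76 and 8.10, of cornified envelope genes 9.53 and 9.21 and of basal genes 10.8 and 10.3. All genes had a median centre of 10.996 and 10.689 and skeletal muscle genes of 13.009 and 13.172. A gene at the same level in all sections has its centre near the middle of the block, so a centre there does not show a peak.

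**Figure D3:**
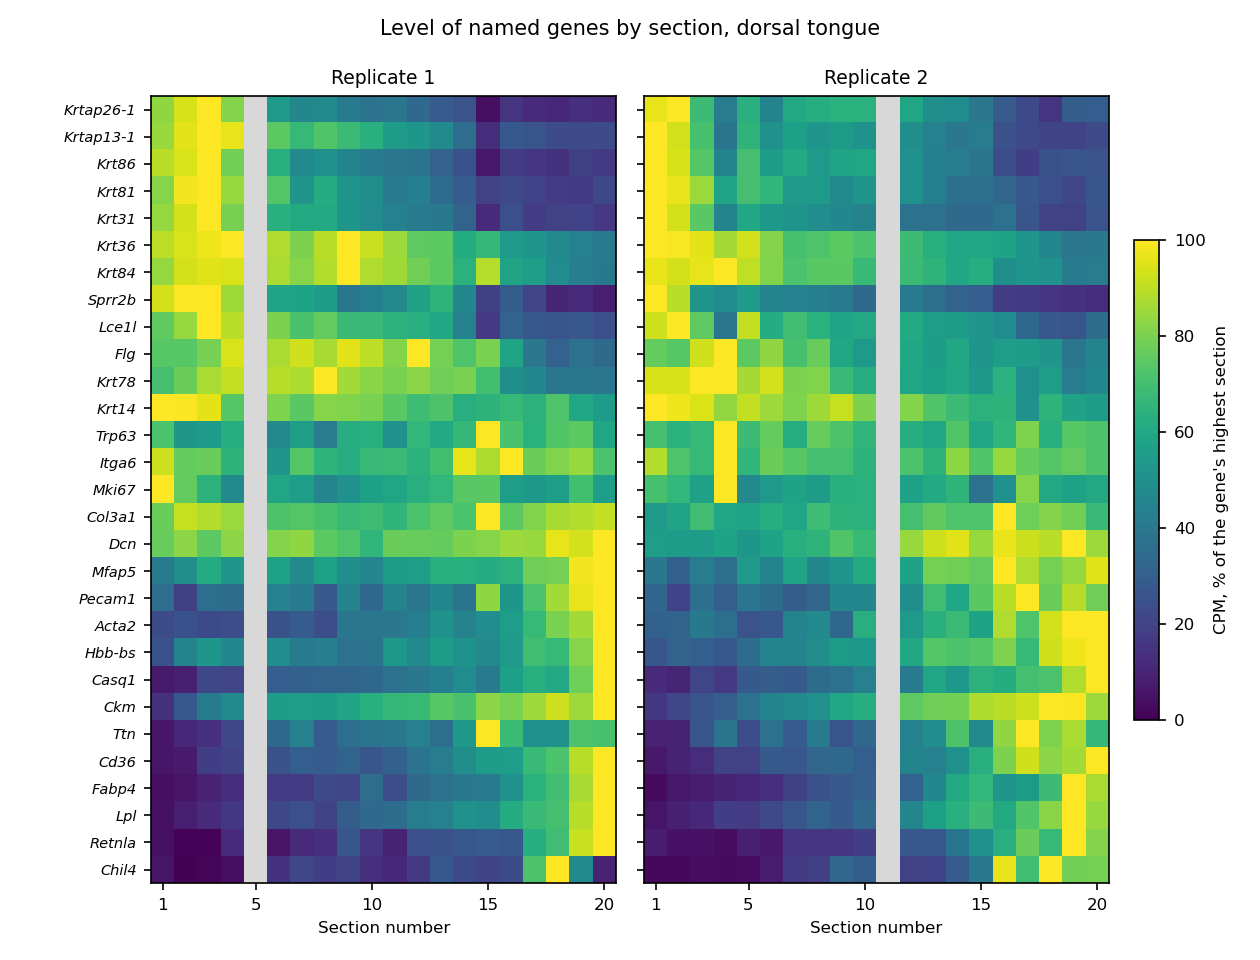
Level of named genes in each section of replicates 1 and 2, as a percentage of the gene's highest section; grey marks section 5 of replicate 1, which was dropped, and section 11 of replicate 2, which is masked. Genes of the hard keratin and Krtap lists are brightest at low section numbers and muscle genes at high ones.

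Skeletal muscle genes were higher in sections 16-20 in 39 of 40 tested, with a median log2 fold change of -1.89. Without replicate 1 or 2 the calls numbered 8 and 1, with medians of -1.99 and -1.64. Their summed level went from 17019 and 15395 CPM in sections 1-5 to 37869 and 37544 CPM in sections 16-20. Muscle transcripts were thus present from the first sections on. Casq1, the calcium store protein of the sarcoplasmic reticulum, was at 49.3 and 55.7 CPM near the surface and at 241 and 248 CPM at depth (-2.07 ± 0.12, adjusted p = 4.67e-10). Ttn (titin) was at 203 and 187 CPM against 960 and 725 CPM (-1.94 ± 0.15). Myh4 (myosin IIb), of fast fibres, reached the UMI limit in 11 sections. It was at 2034 and 1782 CPM against 3168 and 3112 CPM, a log2 fold change of -0.54 in UMIs and of -2.37 in reads. Myh2 (myosin IIa) was at 3.57 and 3.32 CPM near the surface and had a log2 fold change of -2.45 ± 0.27. Tnni1 of slow fibres, the one member that did not pass, was at 7.246 and 5.601 CPM against 6.32 and 4.82 CPM (0.36, adjusted p = 0.374). Acta1, the main actin of skeletal muscle, was at no more than 7.77 CPM in either zone of either sample. This low value is uncertain as a level of the gene, since the sources used here do not give how shared reads were treated.

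Motifs of muscle genes are shown for Myh4 (chr11:67237662-67237811, plus strand, RefSeq GRCm38.p6), since it holds both motifs described, with TATAAA and the E-box letters CAGCTG in capitals.
Myh4: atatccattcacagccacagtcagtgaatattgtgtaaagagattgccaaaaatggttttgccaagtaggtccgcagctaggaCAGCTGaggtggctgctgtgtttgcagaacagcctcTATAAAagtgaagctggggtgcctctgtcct
CAGCTG stood 67 bases before the start and was found in 16 of 32 muscle promoters (50%) against 12.8% of all 27025. The MEF2 motif was in 15.6% against 3.23%, and TATAAA in 21.9% against 13%. None of the 6 hard keratin promoters held CAGCTG.

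Genes of neuromuscular junctions and muscle stem cells were higher at depth in 9 of 14. Chrna1, the alpha subunit of the muscle acetylcholine receptor, was at 0.842 and 1.43 CPM in sections 1-5 and 17.2 and 18.7 CPM in sections 16-20 (-3.87 ± 0.34). Myf6, a muscle transcription factor, was at 8.67 and 8.89 CPM against 40.8 and 42.5 CPM (-2.10 ± 0.19). Less familiar muscle genes were among the 12 largest falls. They were Ky, Asb11, Perm1, Abra, Mypn, Fndc5 and Mettl21e, with log2 fold changes from -2.37 to -2.59. Perm1, a regulator of mitochondrial genes in muscle, was at 14.3 and 13.2 CPM near the surface and at 77.7 and 99.5 CPM at depth.

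The other 5 of the 12 largest falls under the naming rule, which asks for at least 50 CPM, were Chil4, Retnla, Fabp4, Lpl and Cd36. Chil4, a chitinase-like protein, was at 4.73 and 28.8 CPM in sections 1-5 and at 83.3 and 880 CPM in sections 16-20 (-4.55 ± 0.18, adjusted p = 2.07e-12). The zone means rose with depth in both samples, and replicate 2 was higher at both ends. Retnla, a secreted protein of the resistin family, was at 4.59 and 11.9 CPM against 68.5 and 152 CPM (-3.65 ± 0.19). Fabp4, a fatty acid carrier of adipocytes and capillary endothelium, was at 25.1 and 25.8 CPM against 231 and 245 CPM (-3.09 ± 0.16). Lpl, which releases fatty acids from lipoproteins, was at 82.9 and 111 CPM against 616 and 726 CPM (-2.66 ± 0.13). The fatty acid transporter Cd36 was at 28.7 and 31.5 CPM against 169 and 203 CPM (-2.48 ± 0.13). Of 11 adipocyte genes tested 7 were higher at depth and 1 near the surface (median -2.11), but Cfd, an abundant adipocyte product, was near 0. Which cells held these transcripts was not tested.

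**Figure D4:**
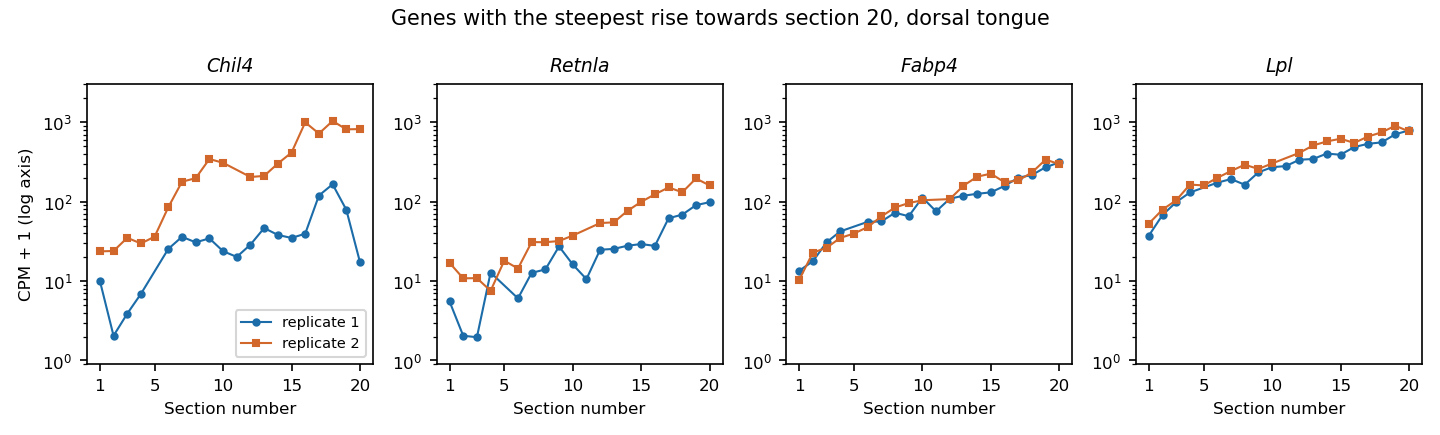
CPM plus 1 on a log axis by section number for Chil4, Retnla, Fabp4 and Lpl in both replicates, with section 11 of replicate 2 left out. All 4 genes are higher in sections 16-20 than in 1-5 in both samples, with Chil4 of replicate 1 at 165 CPM in section 18 and 16.3 CPM in section 20, and the replicates lie close together for Fabp4 and Lpl and apart for Chil4.

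Vessel and blood cell genes were mostly higher at depth. Endothelial genes were higher in sections 16-20 in 17 of 22 tested and near the surface in 1, with a median of -1.09. Without replicate 1 or 2 the calls at depth numbered 1 and 0. Pecam1, an adhesion protein of endothelium, was at 21.03 and 25.90 CPM in sections 1-5 and at 54.5 and 71.0 CPM in sections 16-20 (-1.26 ± 0.15, adjusted p = 1.64e-06), and Cdh5 was at 14.1 and 18.7 CPM against 33.2 and 58.1 CPM (-1.31 ± 0.17). The gene higher near the surface was Plvap, a protein of fenestrated capillaries. It was at 77.8 CPM against 64.1 CPM in replicate 1 and at 2.61 against 1.21 CPM in replicate 2, so the samples differed far more than the zones. Smooth muscle and pericyte genes were higher at depth in 9 of 16 (median -0.73), with Myh11 at 4.71 and 6.21 CPM against 27.4 and 26.3 CPM and Abcc9, a potassium channel subunit of pericytes, at 22.5 and 19.2 CPM against 82.3 and 102 CPM. Red blood cell genes fell toward the surface in 5 of 6, with Hbb-bs at 325 and 222 CPM against 570 and 642 CPM (-0.98). None of the 4 lymphatic genes passed.

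Of 38 fibroblast and matrix genes 12 were higher at depth, where 16.6% of all genes were, and 1 near the surface, with a median of -0.32. With plain CPM scaling 24 passed at depth and none near the surface. The fibrillar collagens did not pass: Col1a1 was at 466 and 538 CPM near the surface and 495 and 694 CPM at depth (-0.06, adjusted p = 0.746), and Col3a1 at 1386 and 1397 CPM against 1372 and 1898 CPM (-0.03, adjusted p = 0.873). Dcn, the proteoglycan decorin, was at 1212 and 780 CPM against 1405 and 1304 CPM (-0.31, adjusted p = 0.095), and passed in read counts (-0.54, adjusted p = 0.0225). Mfap5, of elastic microfibrils, rose with depth from 144 and 130 CPM to 237 and 287 CPM, and Pi16, a marker of adventitial fibroblasts, from 3.43 and 4.75 CPM to 17.66 and 17.02 CPM (-1.95 ± 0.29). Tendon and attachment genes were higher at depth in 6 of 9. Kera (keratocan) was at 0 and 0.438 CPM in sections 1-5 and at 4.56 and 65.7 CPM in sections 16-20, and its fold is not given because it depends on a prior count.

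Among 19 Schwann cell and nerve genes 7 were higher at depth and 3 near the surface, where 16.6% and 15% of all genes were. Mal, made in myelin and in epithelia, was at 15.2 and 14.3 CPM against 6.11 and 6.31 CPM (1.41 ± 0.22). Macrophage genes passed at depth in 5 of 24, a share near the 16.6% of all genes, and in 12 with plain CPM. The 5 included the complement genes C1qc (-0.68) and C1qb (-0.65). Cd74 of antigen-presenting cells was at 200 and 278 CPM against 211 and 275 CPM (0.12, adjusted p = 0.494). The Langerhans cell lectin Cd207 was at 4.35 and 4.26 CPM against 3.79 and 4.50 CPM, too low to describe a gradient. None of 3 Langerhans and T cell genes passed. Of 8 mast cell genes 1 was higher at depth, a share near the 16.6% of all genes. Taste, melanocyte and salivary lists had few genes to test (4, 3 and 4). Trpm5 of taste cells and Pmel of melanocytes were below 1 CPM. Sox2, named for taste progenitors and papilla basal cells, had no UMI in an entry of its own in these sections. By counting error alone this allows up to 3 UMIs of either total. It does not show that Sox2 was absent, since how its reads were assigned was not tested.

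Transcripts of the mitochondrial genome were higher at depth in 10 of 16 tested and near the surface in 3 (median -0.78). In read counts 17 of 20 were higher at depth and none near the surface. Of these, mt-Nd1, mt-Cytb and mt-Nd4 reached the UMI limit, and mt-Co1 was at 613 and 638 CPM against 1474 and 1542 CPM (-1.11 in UMIs, -1.53 in reads).

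Signalling genes were described by the role of their products. Among 32 Wnt genes tested 12 were higher in sections 1-5 and 3 in sections 16-20, where 15% and 16.6% of all genes were. The median of the Wnt list was 0.28. The ligands Wnt3, Wnt7b and Wnt5a were higher near the surface, by 1.34, 0.92 and 0.68, with Wnt3 at 14.23 and 10.96 CPM against 6.20 and 4.75 CPM and Wnt7b at 102 and 104 CPM against 54.9 and 66.4 CPM. So were the secreted inhibitor Wif1, at 182 and 90.9 CPM against 82.6 and 53.9 CPM (1.13 ± 0.12), and the membrane inhibitor Apcdd1, at 669 and 407 CPM against 414 and 306 CPM (0.72 ± 0.11). The secreted antagonists Frzb and Sfrp1 lay deep, with log2 fold changes of -2.10 and -0.63. Frzb was at 2.12 and 1.64 CPM in sections 1-5 and 8.74 and 9.73 CPM in sections 16-20. Most of these ligands and antagonists were named after their values were seen, so they do not describe the family. Of the 32 genes 17 passed in neither direction.

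Among 31 BMP and TGF-beta genes 8 were higher near the surface and 10 at depth, where 15% and 16.6% of all genes were. Bambi, a decoy receptor for the pathway, was at 52.9 and 61.6 CPM against 30.8 and 43.3 CPM (0.83 ± 0.14), and the ligand Gdf10 at 49.6 and 30.5 CPM against 30.57 and 19.03 CPM (0.85 ± 0.15). At depth lay the ligand Bmp5 (-1.98) and the extracellular antagonists Nog (-1.18) and Fst (-0.81), with Nog at 8.07 and 11.2 CPM against 20.9 and 27.3 CPM. Of 31 EGF and FGF genes 10 were higher near the surface and 6 at depth, the latter a share near the 16.6% of all genes. The EGF receptor ligand Epgn was at 389 and 233 CPM against 191 and 132 CPM (1.10 ± 0.13), with Ereg at 1.03 and Areg at 1.62 in the same direction. Fgf22, a ligand made by keratinocytes, was at 57.6 and 53.4 CPM against 29.6 and 25.8 CPM (1.19), and Fgf7, a ligand made by mesenchyme, at 6.18 and 5.39 CPM against 23.5 and 17.4 CPM (-1.64). In the Notch list 5 genes of 16 were higher near the surface, where 15% of all genes were, Nrarp among them at 0.50. Higher at depth were 2 of the 16, a share near the 16.6% of all genes. They were Notch4 (-1.13) and Dll4 (-0.75), both known from endothelium. With plain CPM the Notch list had 1 gene near the surface and 3 at depth. The hedgehog targets Hhip and Ptch1 rose toward the surface by 0.83 and 0.70. They were the only 2 of 10 hedgehog genes to pass, a share near the 15% of all genes.

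The depth differences of dorsal tongue were set against those of ventral tongue, the underside of the same organ, which has no filiform papillae. The test was of the difference of the depth differences itself, with both tongue sites in 1 fit. Of 15252 entries 168 (1.1%) had a larger surface excess in dorsal tongue and 116 (0.761%) a smaller one. The balance depended on the processing, with 141 and 650 for plain CPM, 259 and 444 with no filter and 782 and 1105 without ventral tongue replicate 2. The number fell to 42 in all without dorsal tongue replicate 1 and to 84 without replicate 2, and rose to 1887 without ventral tongue replicate 2. Since section numbers need not mark the same layer in both blocks, the difference holds for section numbers and not for layers.

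Hard keratins and keratin-associated proteins led the first group, with 9 of 12 and 16 of 24 genes. Krt31 had a difference of 3.26 on the log2 scale (adjusted p = 2.38e-05), Krt87 of 3.39 (adjusted p = 2.4e-06) and Krt81 of 3.24. Krtap4-1 was at 1295 and 574 CPM in sections 1-5 and 277 and 191 CPM in sections 16-20 of dorsal tongue, against 2.39 and 3.02 CPM and 12.4 and 6.62 CPM in ventral tongue (3.77, adjusted p = 0.000139). In ventral tongue Krtap4-1 was thus lower than in dorsal tongue in both zones, and it was higher in the later sections. Krt36 was at 198 and 450 CPM and 298 and 576 CPM in the same zones of ventral tongue (1.77). The calls of Krt31, Krt81, Krt87, Krt36 and Krtap4-1 held with each of the 4 tongue samples left out in turn. With all 4 sites in the fit Krt36 did not pass (adjusted p = 0.104). Against the mean of the other 3 sites Krt31 (0.14), Krt36 (0.0531) and Krtap4-1 (0.0793) did not pass. Cornified envelope genes passed in 14 of 46 with a larger surface excess and in 1 with a smaller one. That one was Sprr1a, at 4178 and 2045 CPM in sections 1-5 and 900 and 865 CPM in sections 16-20 of ventral tongue (-1.45, adjusted p = 0.0158), and its call was lost without dorsal tongue replicate 1 (adjusted p = 0.551) or 2 (0.159). None of the 40 skeletal muscle genes differed between the sites by this test, and their median difference was 0.23.

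Several regulators differed in their depth profile. The hair programme list had 4 of 11 genes with a larger surface excess in dorsal tongue, with Msx2 at 2.08 (adjusted p = 0.0013), Hoxc13 at 1.77 (adjusted p = 0.0393) and Cux1 at 0.85 (adjusted p = 0.021). Without ventral tongue replicate 2 the difference of Hoxc13 was 0.19 (adjusted p = 0.906) and that of Msx2 1.58 (adjusted p = 0.173), and neither call held. The call of Hoxc13 was also lost without dorsal tongue replicate 1 (adjusted p = 0.305) or 2 (0.316) and with all 4 sites in the fit (0.231). Tbx3 did not pass in dorsal tongue and was at 18.4 and 19.1 CPM in sections 1-5 against 45.6 and 41.7 CPM in sections 16-20 of ventral tongue (1.495, adjusted p = 0.000795). Meis2, a homeobox factor, went the other way: it was at 4.89 and 4.61 CPM near the surface and 14.0 and 8.87 CPM at depth in dorsal tongue, and at 63.2 and 54.9 CPM against 13.7 and 20.54 CPM in ventral tongue (-2.81, adjusted p = 0.000139). Gdf10 and Epgn had a larger surface excess in dorsal tongue, by 2.13 and 1.34. With dorsal tongue replicate 1 left out the calls were lost for Meis2 (adjusted p = 0.0606), Tbx3 (0.107), Msx2 (0.0751), Cux1 (0.357), Gdf10 (0.155) and Epgn (0.145), all with the same direction. Cux1 (0.27), Gdf10 (0.0909) and Epgn (0.0742) also lost theirs without dorsal tongue replicate 2. With all 4 sites in the fit Tbx3 (0.0515) and Gdf10 (0.219) did not pass, and with plain CPM Cux1 (0.0806) did not.

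**Figure D5:**
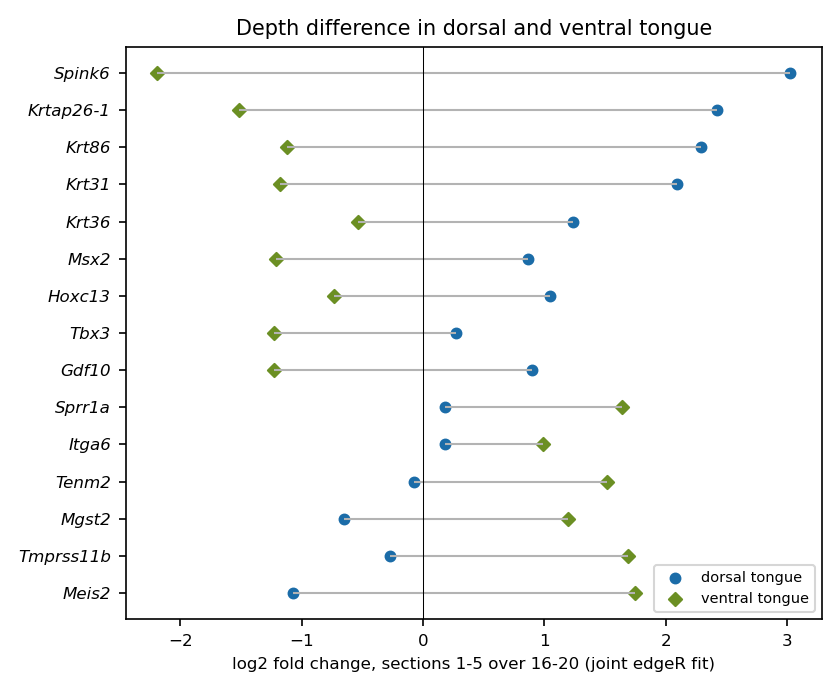
Log2 fold change of sections 1-5 over 16-20 in dorsal and ventral tongue for genes named by the rule, from 1 fit of both sites. Krt31 and Krtap26-1 are positive in dorsal and negative in ventral tongue, and Meis2 is negative in dorsal and positive in ventral tongue.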

How the data were processed

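RNA of single sections was made into CEL-seq2 libraries, which count 3′ ends with UMIs, per the labels' protocols. The submitters' processing notes list STAR 2.7.9a, Trim Galore 0.6.10 and GRCm38. The sources used here do not name the counting program or its use of strand, and overlapping and antisense genes thus cannot be told apart. The authors deposited counts of UMIs and of reads, and expected counts of transcripts estimated from UMIs, per gene and section, judged by their values. UMI counts were the main data. They cannot pass about 4096 per gene and section, and 126 genes reached at least 2048. Folds of these genes can be compressed, and read counts are quoted for some of them. Kept sections near the surface held at most 1040355 and 915465 UMIs in replicates 1 and 2. Those at depth held at least 1092452 and 1040387. A gene at the limit in both zones thus has a higher CPM near the surface whatever its level. For such genes a surface excess in UMIs alone does not show a gradient. Reads per UMI were 1.91 and 2.12.

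Entries naming several genes (0.211% and 0.203% of UMIs) stayed in library sizes and were not named. UMI counts of kept sections were summed over 4 zones of 5 section numbers per sample and passed through filterByExpr and TMM scaling to edgeR 4.0.16 (R 4.3.3; quasi-likelihood test, Benjamini-Hochberg adjusted p under 0.05) with the sample as a term. DESeq2 1.42.0, other scalings, the other deposited counts and left-out samples were alternatives; estimated transcripts were rounded to whole numbers. CPM are means over the sections of a zone, log2 ratios use a pseudocount of 1 CPM, and SE is the fold change divided by the square root of F. The steps were tested on simulated data. Named genes are the 12 largest rises and falls that passed, met the agreement rule and had at least 50 CPM, up to 4 per list with the smallest adjusted p and at least 20 CPM, the 6 largest differences from ventral tongue in each direction, and a set of marker genes. Some genes that the rule takes are not reported here. Other genes named beside a list's count were chosen after their values were seen. The members, lists and named genes were chosen with earlier results of these data known. The check of shared replicate numbers between dorsal and ventral tongue compared how the replicates deviated in the depth difference. It gave a correlation of -0.09 over 15252 genes, which cannot show whether same-numbered samples share an animal. Promoters matched 117 of 180 named genes. Counting error alone sets the limit that a count of 0 allows.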

Additional observations from a re-analysis of the deposited data

Results flagged for a closer look

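The following genes had depth differences (sections 1-5 over 16-20) that differed between dorsal and ventral tongue by the test of the difference itself (edgeR quasi-likelihood test, adjusted p over 15252 entries). Among genes with a larger surface excess in dorsal tongue, the log2 difference was 5.21 for the protease inhibitor Spink6 (adjusted p = 0.0221), whose ventral level did not pass 0.720 CPM. It was 5.08 for Gm11937 (adjusted p = 0.0144) and 3.93 for Krtap26-1 (adjusted p = 0.0035). It was 4.10 for Gm11595, 3.88 for Gm11596 and 3.77 for Krtap4-1. Spink6 and Gm11937 are near 0 in ventral tongue, so their fold changes there depend on the prior count. Without dorsal tongue replicate 1 the calls of Spink6 (adjusted p = 0.164), Gm11937 (0.0834) and Krtap26-1 (0.079) were lost. Spink6 was also lost without ventral tongue replicate 1 (0.12) or 2 (0.0505) and with all 4 sites in the fit (0.0842), and Gm11937 without ventral tongue replicate 2 (0.0771).

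With a smaller surface excess in dorsal tongue, the difference was -2.81 for Meis2 and -1.96 for Tmprss11b, a membrane protease gene (adjusted p = 0.039). It was -1.84 for Mgst2, a microsomal glutathione transferase (adjusted p = 0.0186), and -1.60 for the ribosomal RNA gene n-R5-8s1 (adjusted p = 0.00462). It was -1.59 for Tenm2, a teneurin (adjusted p = 0.0258). In dorsal tongue itself Tmprss11b, n-R5-8s1 and Tenm2 did not pass between sections 1-5 and 16-20. Without dorsal tongue replicate 1 the calls were lost for Meis2 (adjusted p = 0.0606), Mgst2 (0.401), n-R5-8s1 (0.247), Tmprss11b (0.46) and Tenm2 (0.575). Those of n-R5-8s1 (0.0989) and Tenm2 (0.21) were also lost without dorsal tongue replicate 2, that of Mgst2 without ventral tongue replicate 1 (0.0503), and that of n-R5-8s1 with all 4 sites in the fit (0.0776). Against the mean of the other 3 sites the call of Meis2 held and those of the other genes named here, in both directions, were lost.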

How the results depend on the processing

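Of 2155 genes higher in sections 1-5 and 2379 higher in 16-20, the counts became 1242 of the former kind with plain CPM, 1376 and 1493 with DESeq2, and 428 and 978 without the sample as a replicate block. With all 4 sites in the fit 1127 genes were higher near the surface, of which 1118 are among the 2155. Leaving out a replicate, with the spread taken from the other sites, gave 173 to 285 and 113 to 562. Calls in lists without replicate 1 or 2 numbered 9 and 9 for hard keratins, 16 and 18 for Krtap genes, 2 and 1 for matrix at depth and 0 and 0 for adipocytes, red blood cells, the basal layer, cell cycle, hair regulators, macrophages, nerve, Notch and hedgehog. With plain CPM the BMP and TGF-beta list was split 5 to 13 and the EGF and FGF list 9 to 9. No named gene reversed in these fits. Genes peaking in sections 6-15 numbered 0, against 16 with no filter and 2 with DESeq2. Without section 15 of replicate 1 and section 4 of replicate 2 the counts were 2151 and 2368. A ratio of 0.5 for agreement gave 389 and 1652.

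The difference from ventral tongue, 284 genes, became 791 with plain CPM, 703 with no filter, 42 against the mean of the other 3 sites and 42 to 1887 with a sample left out, 42 without dorsal tongue replicate 1, 84 without replicate 2 and 1887 without ventral tongue replicate 2. With the replicate block on the depth difference it was 282, and Sprr2h lost its call (adjusted p = 0.0576). Same-numbered samples of the 2 tongue sites were alike in Xist. It was at 197 and 1.78 CPM in replicates 1 and 2 of dorsal tongue and at 158 and 2.08 CPM in those of ventral tongue. Whether same-numbered samples share an animal was not tested. Against the other 3 sites Hoxc13 turned to -0.62, Msx2 to -0.38 and Flg to -0.063. The cause was not tested. UMI saturation limits Krt4, Krt13, Lor and Myh4. Log2 fold changes in reads of other genes with many UMIs were 2.28 for Krtap13-1, 0.89 for Krt14, 0.53 for Krt5 and -0.30 for Col3a1.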

Other observations

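The 2 dorsal tongue samples differed widely in the mean level of a few genes. Among 6781 genes of at least 20 CPM in a replicate, 15 were at least 8-fold higher in replicate 1 and 13 in replicate 2, as means over sections with no test. Mucl2 was at 0.0414 and 216 CPM in replicates 1 and 2, and the secretoglobin genes Scgb1b27 and Scgb2b27 at 0 and 107 CPM and 0.427 and 108 CPM. Cdh23 was at 485 and 2.36 CPM, Gpx2 at 60.5 and 0.841 CPM, Chmp1a at 99.4 and 2.05 CPM and Plvap at 60.7 and 1.63 CPM. Klk12, a kallikrein, was at 2.49 and 59.5 CPM. Most of these genes differed in the same direction between replicates 1 and 2 of ventral tongue. There Mucl2 was at 0 and 183 CPM, Scgb1b27 at 0 and 87.1 CPM and Scgb2b27 at 0.614 and 89.5 CPM. Cdh23 was at 526 and 4.30 CPM there, Gpx2 at 270 and 9.55 CPM and Plvap at 72.2 and 18.1 CPM. Chmp1a (27.5 and 108 CPM) and Klk12 (49.3 and 24.1 CPM) differed the other way in ventral tongue. Among members described above, Krt32, Plvap, Chil4 and Kera are in the set of at least 8-fold in dorsal tongue. That set was picked for the size of the difference.

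Single sections also stood apart. In section 15 of replicate 1 the summed Krtap level was 3901 CPM between 11408 and 8774 CPM in its neighbours, and Trp63 was at 135 CPM between 89.7 and 96.0 CPM. Mki67 was at 66.8 CPM there between 66.6 and 50.4 CPM, Itga6 at 117 CPM between 128 and 133 CPM and the hard keratin sum at 6141 CPM between 6166 and 5204 CPM. In section 4 of replicate 2 the Krtap sum was 11013 CPM between 17700 and 16297 CPM, with Trp63 at 123 CPM between 82.5 and 84.3 CPM and Mki67 at 94.2 CPM between 53.9 and 44.4 CPM. Itga6 was at 129.5 CPM between 86.9 and 85.4 CPM, and the hard keratin sum at 10340 CPM between 11714 and 10512 CPM. Without both sections 2151 genes were higher near the surface and 2368 at depth, of which 2033 and 2276 were also called with them. Mki67 then did not pass (0.29, adjusted p = 0.0999). These alternatives were chosen after seeing the data.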
